A study of Mus musculus with 9 samples.

Results

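S100a8, S100a9, Il1b, Il1r2, Csf3r, Cxcr2, Ngp, Camp, Ltf and Mmp8 are 10 genes of the neutrophil: calcium-binding S100 proteins, an interleukin 1 cytokine and its decoy receptor, receptors for growth factor and chemokine, and granule proteins. They were chosen with the array values in view, as neutrophil genes that were high on arrays of mice given an EP3 agonist. Each probe set whose only gene symbol is a member's was taken, which gave 13 of the 12488 probe sets on the array and all 10 members among the 8252 genes with a probe set of their own. The arrays went against the label for several of them: Ngp and Mmp8 were below 0 on every array, and Camp and Ltf were not higher on the agonist arrays than on all the others. Where members were high on agonist arrays, they were so on replicates 1 and 3 and not on replicate 2.

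Lung RNA of C57BL6 mice was hybridised to 9 Affymetrix arrays in 3 groups of 3. All mice belong to a model of asthma in which ovalbumin (OVA), the egg-white allergen, is the trigger. The first group got a saline challenge, the second an OVA challenge, and the third an OVA challenge together with an agonist of EP3, a receptor for prostaglandin E2. Titles of the last 2 groups carry 24 h, and those of the saline group carry no time. The sources used here do not give the agonist's name, its dose and time, the age and sex of the mice, or whether each array is a separate mouse, so that p-values measure only the spread between these arrays, which may be technical.

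Neutrophils are short-lived white blood cells that leave the bone marrow for the blood and enter inflamed tissue, and the lung holds many of them in its capillaries. S100a8 and S100a9 pair to form calprotectin, the most abundant protein complex of the neutrophil's cytosol, and their transcripts stay high in the mature cell. The granule proteins are made earlier, in marrow precursors, so that their transcripts are low in a circulating neutrophil. Cxcr2, the receptor for the chemokines Cxcl1, Cxcl2 and Cxcl5, directs the cell towards inflamed tissue, and Csf3r, the receptor of G-CSF, drives its production and release.

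The promoters of S100a8 and S100a9 are shown because these genes had the highest values on agonist replicates 1 and 3, and those of Ltf and Camp because these granule genes did not share that pattern. Each is the 250 bases before the RefSeq transcription start on GRCm38.p6, written 5′ to 3′ on the gene's strand. Capitals mark exact matches to TATAAA on the gene's strand, to the PU.1 core GAGGAA on either strand (TTCCTC on the other), and to the C/EBP motif TTGCNNAA on either strand.

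S100a8, chr3:90668821-90669070, plus strand: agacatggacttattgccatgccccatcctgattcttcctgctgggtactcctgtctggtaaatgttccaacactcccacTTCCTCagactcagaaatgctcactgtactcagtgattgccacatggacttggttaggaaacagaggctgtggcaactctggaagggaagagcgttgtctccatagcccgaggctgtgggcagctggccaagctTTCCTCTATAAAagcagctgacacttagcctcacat

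S100a9, chr3:90695722-90695971, minus strand: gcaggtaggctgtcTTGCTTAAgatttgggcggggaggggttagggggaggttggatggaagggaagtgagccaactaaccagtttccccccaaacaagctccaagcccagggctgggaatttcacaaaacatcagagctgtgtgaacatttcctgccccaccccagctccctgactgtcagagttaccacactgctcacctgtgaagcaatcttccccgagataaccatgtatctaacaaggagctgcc

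Ltf, chr9:111019042-111019291, plus strand: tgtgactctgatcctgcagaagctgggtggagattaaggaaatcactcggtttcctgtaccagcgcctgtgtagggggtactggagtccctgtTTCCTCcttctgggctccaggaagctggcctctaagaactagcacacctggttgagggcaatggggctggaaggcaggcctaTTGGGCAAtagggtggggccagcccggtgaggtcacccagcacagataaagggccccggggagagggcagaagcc

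Camp, chr9:109849457-109849706, minus strand: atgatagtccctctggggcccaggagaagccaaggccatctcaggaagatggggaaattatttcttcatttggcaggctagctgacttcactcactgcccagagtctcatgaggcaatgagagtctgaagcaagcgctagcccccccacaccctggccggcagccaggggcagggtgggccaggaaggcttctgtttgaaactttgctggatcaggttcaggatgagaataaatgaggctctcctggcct

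S100a8 and S100a9 lie near each other on chromosome 3, on opposite strands. The S100a8 promoter held TATAAA from 30 bases before the start, directly after a PU.1 match from 36 bases before it, with which it shared no base, and a second PU.1 match from 170 bases. S100a9 held only a C/EBP match, 236 bases before the start. Ltf held a PU.1 match (157 bases) and a C/EBP match (75 bases), and Camp none of the 3 motifs. Over all 10 members, TATAAA occurred in 2 promoters (S100a8 and Il1b), against 7.59% of the 32851 promoters of that length. GAGGAA occurred in 5 (S100a8, Csf3r, Cxcr2, Ltf and Mmp8), against 23.3%. TTGCNNAA occurred in 4 (S100a9, Ngp, Ltf and Mmp8), against 9.56%. S100a8 and S100a9, which were high on the same arrays, shared none of these 3 motifs as exact matches within the 250 bases. Ltf, which followed another pattern, held a PU.1 match as S100a8 did and a C/EBP match as S100a9 did. Any link between the motifs and the array patterns was not tested.

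Values are intensities scaled to a common array level. Those above 44.9, the 40th percentile of all values, count as above the detection limit, and values were raised to a floor of 3.19 before log2. On the 9 arrays, 59.6% to 60.6% of probe sets were above that limit, and the ratio of 3′ to 5′ signal, a sign of RNA quality, was 1.08 to 1.16 for Gapdh and 1.34 to 1.51 for actin. The same ratio for 18S was 2.39, 3.62 and 2.63 on agonist replicates 1, 2 and 3, so that replicates 1 and 3 were the lowest and replicate 2 the highest of all 9 arrays. For pyruvate carboxylase it was 3.34, 2.67 and 3.32 on these arrays and 2.08 to 7.96 on the others. Arrays numbered 2 were the lowest of their group for the spike-in BioDn-3, with 1537, 990.2 and 1323 in saline, OVA and agonist, against 1708 to 2835 on the others. BioC-3 and CreX-3 were also lowest on number 2 in each group, and BioB-M highest. The part of 18S and of the spike-ins in the results below was not tested. Within the same number, agonist minus OVA on the log2 scale was 2.44, -0.17 and 2.85 for S100a8 and 3.35, 0.38 and 3.55 for S100a9 (numbers 1, 2 and 3).

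S100a8, a subunit of calprotectin, had intensities of 402.6, 258.7 and 314.3 on the saline arrays, of 421.2, 323.0 and 281.0 on the OVA arrays, and of 2283, 287.3 and 2026 on agonist replicates 1, 2 and 3. Agonist replicates 1 and 3 were thus far above the other 7 arrays, which lay within 258.7 to 421.2 and included agonist replicate 2. Replicate 1 had 5.42 times and replicate 3 had 4.81 times the highest saline or OVA value, and they had 7.95 and 7.05 times the value of replicate 2. As a group, the agonist arrays had 1532 ± 1086 (SD, n = 3) against 342 ± 71.9 with OVA, a log2 difference of 1.71 (SE 0.72), and the groups overlapped. Without agonist replicate 1, 2 or 3 the log2 difference was 1.18, 2.67 or 1.27. The members were chosen on this contrast, so its values are a description with no test. In whole lung, more cells of a type and more RNA per cell cannot be told apart, nor can fewer cells and less RNA per cell.

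S100a9, its partner subunit, was at 119.9, 126.2 and 98.0 with saline, at 151.8, 98.3 and 100.7 with OVA, and at 1543, 128.1 and 1181 on agonist replicates 1, 2 and 3. The pattern was that of S100a8: agonist replicate 2 lay within the OVA range, while replicates 1 and 3 had 10.2 and 7.78 times the highest saline or OVA value. Replicate 1 had 12.0 times and replicate 3 had 9.22 times the value of replicate 2. The agonist mean of 950.5 ± 735 stood against 117 ± 30.3 with OVA and 115 ± 14.8 with saline (SD, n = 3 each). The log2 difference from OVA was 2.43 (SE 0.84), and 1.76, 3.56 or 1.96 without agonist replicate 1, 2 or 3.

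OVA against saline is a contrast that did not choose the members, though it shares the OVA arrays with the one that did. S100a8 was 0.07 higher on the log2 scale with OVA (95% interval -1.61 to 1.76; limma adjusted p = 0.956), and S100a9 was 0.01 higher (-1.94 to 1.96; limma adjusted p = 0.998). These intervals carry the spread of the agonist arrays, since the 9 arrays share 1 fit. Fitted on the 6 saline and OVA arrays, the intervals were -0.47 to 0.62 for S100a8 and -0.50 to 0.51 for S100a9.

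**Figure D1:**
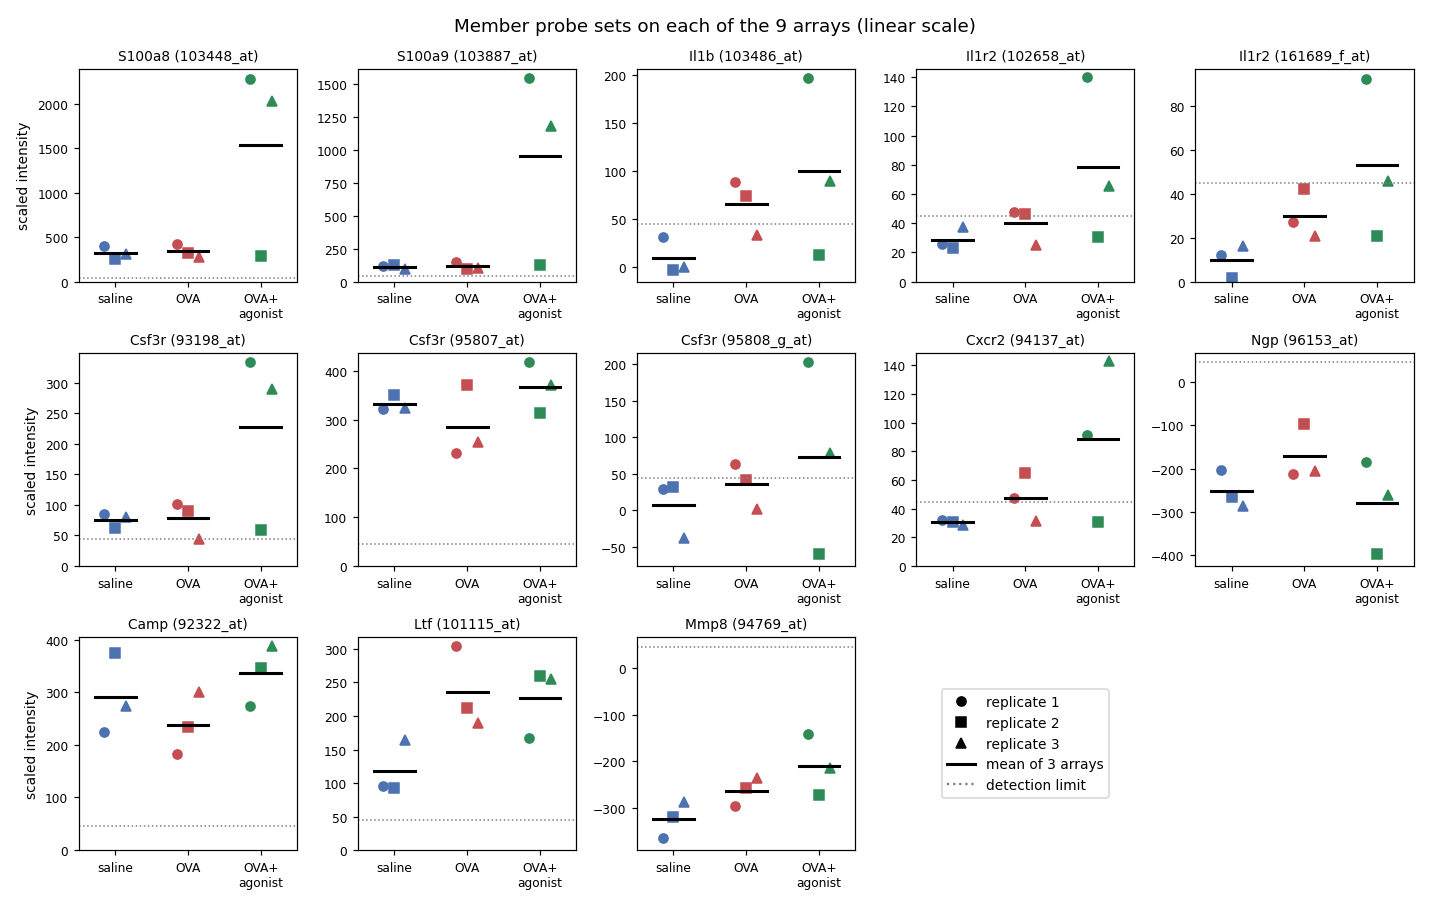
Scaled intensity (linear axis) of the 13 member probe sets on the saline, OVA and OVA plus agonist arrays, with 1 point per array, the replicate number as the symbol, a black bar for the mean of 3 arrays and a dotted line at the detection limit of 44.9. S100a8 stands at 2283 and 2026 on agonist replicates 1 and 3 and at 287.3 on replicate 2, Ltf at 167.1 to 260.2 over the same 3 arrays, and Ngp and Mmp8 are below 0 throughout.

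Il1b, the cytokine interleukin 1 beta, had 30.6, -3.08 and -0.36 with saline, 88.9, 73.4 and 33.0 with OVA, and 196.9, 12.5 and 89.9 on agonist replicates 1, 2 and 3. No saline array was above the detection limit, 2 OVA arrays were, and so were agonist replicates 1 and 3. The OVA and saline arrays did not overlap, with means of 65.1 ± 28.9 and 9.05 ± 18.7 (SD, n = 3 each). The log2 difference was 3.15 (SE 1.20; limma adjusted p = 0.133, unadjusted 0.0319) but fell to 0.57 with the floor at the 40th percentile, because saline values lay at the floor. Over the alternatives it ran from 0.57 to 4.27, with adjusted p-values from 0.0813 to 0.4605. Agonist and OVA differed by 0.01 (SE 1.20), a mean that joins arrays 1.72 and 0.58 above the OVA mean, replicates 1 and 3, with replicate 2 at -2.26.

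Il1r2, a decoy receptor that binds interleukin 1 without passing on a signal, had 25.9, 23.4 and 37.1 with saline, 48.0, 46.4 and 25.1 with OVA, and 139.9, 30.3 and 65.4 on agonist replicates 1, 2 and 3. Agonist replicate 1 had 2.92 times and replicate 3 had 1.36 times the highest value of the other 2 groups, whereas replicate 2 lay among them. The log2 difference of OVA from saline was 0.44 (SE 0.53; limma adjusted p = 0.626). A second Il1r2 probe set, 161689_f_at, was above the limit on 2 arrays only and was not tested. It had its highest values on the same arrays, 92.3 and 45.9 on agonist replicates 1 and 3, against 20.9 on replicate 2, 1.49 to 16.4 with saline and 20.7 to 42.0 with OVA.

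Csf3r, the G-CSF receptor, was measured by 3 probe sets that disagreed. Probe set 93198_at had 85.2, 61.3 and 80.1 with saline, 101.7, 90.3 and 43.6 with OVA, and 334.7, 59.2 and 289.6 on agonist replicates 1, 2 and 3. It followed S100a8: replicates 1 and 3 had 5.65 and 4.89 times the value of replicate 2, which lay below all saline and OVA arrays but OVA replicate 3. Its agonist mean was 228 ± 148 against 78.5 ± 30.8 with OVA (SD, n = 3 each), a log2 difference of 1.28 (SE 0.65) that became 0.83, 2.08 or 0.93 without agonist replicate 1, 2 or 3. OVA and saline differed by -0.02 (SE 0.65; limma adjusted p = 0.987), with a sign that turned positive with equal array medians (0.01) and with quantile normalization (0.00). Probe set 95807_at, the brightest of the 3, ran from 231.0 to 371.9 with saline and OVA and had 418.6, 312.8 and 371.1 on agonist replicates 1, 2 and 3, so that its range was narrow. Probe set 95808_g_at was above the limit on 3 arrays, OVA replicate 1 (63.5) and agonist replicates 1 (202.8) and 3 (78.0), and was at -59.5 on agonist replicate 2.

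Cxcr2, the chemokine receptor, had 31.7, 30.7 and 28.5 with saline, 47.2, 64.5 and 31.2 with OVA, and 91.3, 30.6 and 143.0 on agonist replicates 1, 2 and 3. Here replicate 3 was the highest of all 9 arrays and replicate 1 the next, with 4.67 and 2.98 times the value of replicate 2, which was within the saline range. The log2 difference of OVA from saline was 0.59 (SE 0.53; limma adjusted p = 0.493). Cxcr2, Il1b and Il1r2 were tested only because 4 arrays passed the limit, namely OVA replicates 1 and 2 and agonist replicates 1 and 3.

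**Figure D2:**
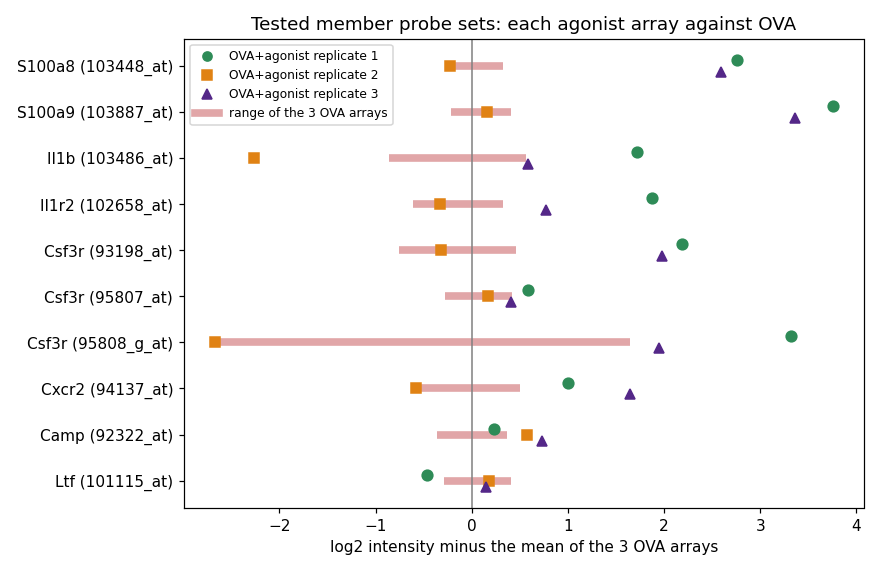
Log2 intensity of each agonist array minus the mean of the 3 OVA arrays, for the 10 tested member probe sets, with the range of the 3 OVA arrays as a red bar. For S100a9, replicates 1 and 3 lie at 3.75 and 3.37 and replicate 2 at 0.16. For Ltf the 3 agonist arrays lie between -0.46 and 0.18.

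Of the granule proteins, Ltf and Camp did not follow the S100 genes. Ltf, lactoferrin, an iron-binding protein of specific granules that secretory epithelium also makes, had 96.2, 91.9 and 164.4 with saline, 304.9, 212.5 and 188.8 with OVA, and 167.1, 260.2 and 254.9 on agonist replicates 1, 2 and 3. Every OVA array was above every saline array, and replicate 1 was the lowest agonist array, the reverse of its place for S100a8. The OVA mean was 235 ± 61.3 against 117.5 ± 40.7 with saline (SD, n = 3 each), a 2.03-fold difference with a log2 value of 1.02 (SE 0.30, 95% interval 0.34 to 1.71) that missed the threshold (limma adjusted p = 0.0685, unadjusted 0.0089). Over the alternatives the adjusted p ran from 0.0456, with the detection filter at the 60th percentile, to 0.196. Agonist and OVA differed by -0.05.

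Camp, the precursor of the antimicrobial peptide cathelicidin, had 223.9, 374.9 and 273.0 with saline, 181.9, 233.5 and 300.2 with OVA, and 274.4, 346.8 and 387.9 on agonist replicates 1, 2 and 3. The groups overlapped in each comparison, with means of 291 ± 77.1, 239 ± 59.3 and 336 ± 57.5 (SD, n = 3 each). The log2 difference of OVA from saline was -0.28 (SE 0.25; limma adjusted p = 0.490), and of agonist from OVA 0.51.

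Ngp, neutrophilic granule protein, ran from -396.8 to -97.6, and Mmp8, neutrophil collagenase, from -363.2 to -141.1. Mmp8 was least negative on agonist replicates 1 (-141.1) and 3 (-214.1), with -271.7 on replicate 2, the order of S100a8. Values below 0 come from a subtraction made before deposit, so these 2 genes have no level here and were not tested. Their being below the limit does not show that the transcripts were absent.

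Of the 13 member probe sets, 10 for 8 genes passed the detection filter. In OVA against saline, 0 were called at a limma adjusted p under 0.05, where 9.5% of the 7916 tested probe sets were (5.08% higher and 4.42% lower with OVA), and 2 had unadjusted p-values under 0.05 (Il1b and Ltf), where 29% did. The arrays did not overlap for 2, both higher with OVA, against 15.4% of all tested. The median log2 difference was 0.26 over the 10 and -0.09 over all tested. In agonist against OVA, the contrast behind the choice, 2.84% of all tested probe sets were called (1.29% higher and 1.55% lower). Members were not tested there. Of their 10 differences, 9 were positive, and the median was 0.73 against 0.06 over all tested. Without overlap, 0 members were higher there, beside 17.9% of all tested. In agonist against saline, where members were not tested either, 0.0758% of all tested probe sets were called, and 2 members (S100a9 and Ltf) were higher without overlap, beside 6.66% of all tested. Both comparisons use the arrays on which the members were chosen, so nothing is read from these counts. Of the 10, 4 passed the filter through arrays of the OVA and agonist groups alone.

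Other genes of neutrophil granules were set beside the members from a list of 16, of which 9 were on the array and 8 were tested. With OVA, 5 rose, namely Lcn2, Chil3, Pglyrp1, Slpi and Adam8, while Lyz2 fell, and Mmp9 and Hp did not pass (limma adjusted p under 0.05), with a median of 1.01 against -0.09 over all tested. Lcn2, lipocalin 2, which binds bacterial siderophores, had 496.8, 547.7 and 572.3 with saline, 2608, 2944 and 2000 with OVA, and 987.0, 568.8 and 1876 on agonist replicates 1, 2 and 3. It rose by 2.21 on the log2 scale with OVA (SE 0.39; limma adjusted p = 0.0212), and the agonist arrays were all below the OVA arrays. Chil3, a chitinase-like protein also made by macrophages, rose by 1.71 with OVA (limma adjusted p = 0.0185), with 2292, 2183 and 4871 on agonist replicates 1, 2 and 3 against 5303 to 6143 with OVA. Pglyrp1, a peptidoglycan-binding protein, rose by 1.28 (limma adjusted p = 0.0308), and Slpi, a protease inhibitor, by 0.75 (limma adjusted p = 0.0278). Each of these genes was thus high on all 3 OVA arrays, where S100a8 and S100a9 were at the saline level. These calls did not all hold when an array was left out: Lcn2, Chil3 and Pglyrp1 lost theirs without any one saline array or without OVA replicate 1 or 2 (adjusted p up to 0.0793, 0.0688 and 0.103), Slpi without any one saline or OVA array (up to 0.082), and Adam8 without saline replicate 2 or 3 or OVA replicate 1 or 2 (up to 0.0895).

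In agonist against OVA, 1 gene of that list rose (Lyz2) and 1 fell (Slpi), and the median was -0.68 against 0.06 over all tested. Lyz2, lysozyme of macrophages and granulocytes, was lower with OVA than with saline by 0.43 (log2 change -0.43; limma adjusted p = 0.049) and 0.57 higher with agonist than with OVA (limma adjusted p = 0.0442), and each call was lost without most single arrays (adjusted p up to 0.139 and 0.145). Slpi was lower with agonist than with OVA (log2 change -0.72; limma adjusted p = 0.0498), and lost the call without 8 of the 9 arrays in turn. Mmp9, gelatinase B, had 77.0, 106.0 and 60.9 with saline, 47.2, 75.9 and 100.3 with OVA, and 246.5, 133.6 and 210.3 on agonist replicates 1, 2 and 3. At this probe set all agonist arrays were above all others, with the lowest value again on replicate 2. The log2 difference from OVA was 1.42 (SE 0.35; limma adjusted p = 0.0689). A second, dimmer Mmp9 probe set was not tested. It had 82.3, 9.77 and 40.4 on agonist replicates 1, 2 and 3, against 2.18 to 8.71 with saline and 3.93 to 10.7 with OVA. There, replicate 2 lay within the OVA range, and only replicate 1 was above the detection limit.

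**Figure D3:**
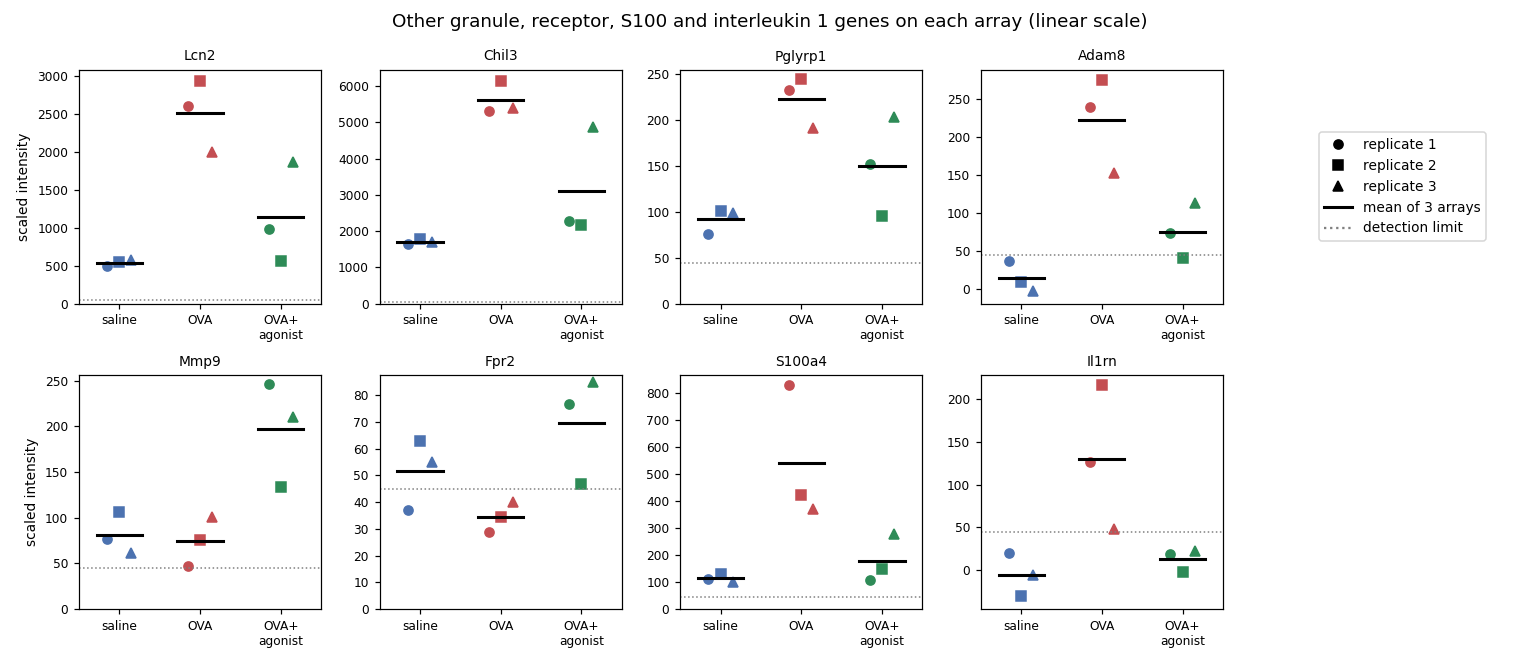
Scaled intensity (linear axis) of 8 other granule, receptor, S100 and interleukin 1 genes on each array, with the replicate number as the symbol, a black bar for the mean of 3 arrays and a dotted line at the detection limit. Lcn2 is at 2000 to 2944 with OVA and at 568.8 to 1876 with agonist. Mmp9, at its brightest probe set, is at 133.6 to 246.5 with agonist and at most at 106.0 elsewhere.

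Of 8 listed genes of azurophil granules, the first to form, 6 were on the array and 3 tested, with 0 called in either comparison. Elane, neutrophil elastase, stayed between 74.8 and 98.6 on all 9 arrays. Mpo, myeloperoxidase, was between 21.0 and 45.1, with 1 array above the limit. Neither had its highest value on agonist replicate 1 or 3.

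Of 25 listed neutrophil surface receptors, 18 were on the array and 12 tested. With OVA, 1 rose, Csf2ra, a subunit of the GM-CSF receptor (1.31; limma adjusted p = 0.0464, up to 0.147 with single arrays left out), and 0 were called between agonist and OVA, with medians of 0.12 and -0.13. Fpr2, a formyl peptide receptor of neutrophils and monocytes, had 37.1, 62.9 and 54.8 with saline, 28.8, 34.2 and 40.1 with OVA, and 76.7, 46.9 and 84.7 on agonist replicates 1, 2 and 3. Replicates 1 and 3 were its 2 highest arrays, as for S100a8, and the log2 difference of agonist from OVA was 0.98 (limma adjusted p = 0.0903). Ly6g, the surface marker by which mouse neutrophils are sorted, was between -0.20 and 28.7, below the limit on all 9 arrays. Clec4d, also not tested, had 69.0, 15.7 and 36.2 on agonist replicates 1, 2 and 3, against -2.97 to 17.7 with saline and OVA. No other untested receptor of the list had agonist replicates 1 and 3 as its 2 highest arrays.

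Of 12 listed Cxcr2 ligands and granulocyte cytokines, 9 were on the array and 3 tested, with 0 called in either comparison. Cxcl5, a Cxcr2 ligand made by lung epithelium, passed the limit on 2 arrays only and was not tested. It had 162.5, 243.3 and 34.2 with OVA, 8.18 to 11.9 with saline, and 11.8, 15.4 and 18.4 on agonist replicates 1, 2 and 3. It was thus low on the 2 agonist arrays where Cxcr2 was highest. Csf3, which encodes the ligand of Csf3r, had 63.4, 213.1 and 40.8 with saline, 150.2, 191.5 and 158.5 with OVA, and 65.9, 204.2 and 206.0 with agonist, with overlap of all groups.

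Of 23 listed genes of the interleukin 1 pathway, 14 were on the array and 11 tested. With OVA, 1 rose, Il1rn, the interleukin 1 receptor antagonist, and 0 were called between agonist and OVA, with medians of 0.49 and -0.12. Il1rn had 126.8, 216.3 and 48.7 with OVA, with no saline or agonist array above 22.7. It passed the detection filter through the 3 OVA arrays alone, so the filter itself favoured a rise with OVA. For OVA against saline the limma adjusted p was 0.0429, and up to 0.122 with single saline or agonist arrays left out. Il1rn was not tested without an OVA array. Unlike Il1b, it was below the detection limit on agonist replicate 1 (19.0) as on replicates 2 (-2.14) and 3 (22.7). Il1a, the other interleukin 1 agonist, had 69.2 to 80.5 with OVA and 77.2 to 88.4 with agonist, with 77.2 on replicate 2.

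Of 14 other S100 genes and S100 receptors listed, 12 were on the array and 10 tested. With OVA, S100a4 and S100a1 rose and Ager fell, and 0 were called between agonist and OVA, with medians of -0.07 and 0.03. S100a4, a calcium-binding protein of macrophages and fibroblasts, had 112.7, 130.6 and 101.2 with saline, 829.2, 423.4 and 370.6 with OVA, and 107.7, 149.1 and 279.3 with agonist (OVA against saline 2.15, limma adjusted p = 0.0241). It was highest on the OVA arrays. Among the agonist arrays S100a4 was lowest on replicate 1 and highest on replicate 3, and S100a8 and S100a9 were high on both. Ager, a receptor that S100 proteins can bind and a marker of alveolar type I cells, fell by 0.43 (limma adjusted p = 0.0231). S100a4 and Ager lost these calls without any one saline array or without OVA replicate 1 or 2, and S100a1 without 7 of the 9 arrays in turn (adjusted p up to 0.0767, 0.0873 and 0.118).

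Of 6 listed subunits of the NADPH oxidase, the neutrophil's source of superoxide, 4 were tested. Cyba rose with OVA by 0.63 (limma adjusted p = 0.0239, up to 0.092 with single arrays left out), and 0 were called between agonist and OVA. Of 11 listed transcription factors of granulocyte formation, 9 were tested, with 0 called in either comparison and medians of 0.13 and -0.18. Spi1, which encodes PU.1, had 273.5 to 300.6 with OVA, 169.6 to 191.6 with saline, and 152.5, 206.8 and 330.8 on agonist replicates 1, 2 and 3. Its lowest value of all 9 arrays was on agonist replicate 1 and its highest on replicate 3, and S100a8 was high on both.

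Markers of other cell types moved between the same arrays. The summed intensity of the monocyte and macrophage markers (14 of 16 on the array) was 2448 to 2940 with saline, 5844 to 6678 with OVA, and 2907, 3230 and 4437 on agonist replicates 1, 2 and 3. That of the B and plasma cell markers (7 of 8) was 1140 to 1393, 2220 to 3112, and 761.6, 1274 and 2004. In neither sum were agonist replicates 1 and 3 together apart from replicate 2. The T cell sum (8 of 10) was 310.2 to 408.1 with saline and OVA and 376.0, 458.9 and 335.9 with agonist. Of these 8 genes, 5 were above the limit on no array. With agonist, most of the sum was Cd4 (255.4, 309.7 and 172.9). The sums for red cells (5 of 8), platelets (5 of 8) and endothelium (10 of 10) on agonist replicates 1 and 3 lay within 8302 to 9888, 199.4 to 205.8 and 11805 to 12902, and on replicate 2 at 9761, 217.1 and 12697. The red cell sum was nearly all Hba-a1, with 9416, 9187 and 7887 on agonist replicates 1, 2 and 3. Of 9 eosinophil markers, 6 were on the array and 5 were above the limit on no array, among them the granule genes Prg2 and Epx. The other, Alox15, had 213.0, 273.3 and 105.9 with OVA, and no saline or agonist array was above 2.92. Its log2 difference was 5.85 for OVA against saline (limma adjusted p = 0.00011) and -5.85 for agonist against OVA (limma adjusted p = 8.3e-05). The size of both depends on the floor. Alox15 passed the detection filter through the 3 OVA arrays alone. All its saline and agonist values lay below the floor, so these groups had no spread. Leaving out any one saline or agonist array thus left the group means unchanged, and both calls held. Alox15 was not tested without an OVA array. The mast cell and basophil sum (9 of 9) was 968.5 to 1184 with saline, 825.3 to 897.6 with OVA, and 923.1, 1172 and 902.4 on agonist replicates 1, 2 and 3. Most of it was Kit, with 679.3, 791.0 and 567.4 on these agonist arrays. Of the 9 genes, 4 were above the limit on no array. The lung epithelium sum (6 of 8) was 34406 to 34775 over the agonist arrays. Of the sums given here, agonist replicates 1 and 3 were both below replicate 2 for T cells, mast cells and basophils, and platelets. The part of these cells in the members' values was not tested.

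Of 16 genes listed as neutrophil markers, which include the 10 members, 15 were on the array. Of these, 8 were above the limit on all arrays and 3 on none (Ngp, Mmp8 and Ly6g). Their summed intensity was 1966, 2055 and 2032 with saline, 4269, 4561 and 3456 with OVA, and 6477, 2247 and 6735 on agonist replicates 1, 2 and 3. The sum was thus high with OVA through Lcn2 and high on agonist replicates 1 and 3 through S100a8 and S100a9 as well. Which cells the Lcn2 signal came from was not tested. The members in the sum were chosen as high on agonist arrays, so nothing is read from its height there.

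The genes most like the members were those whose log2 intensity over the 9 arrays had the highest Pearson r with the mean of the standardised values of the 8 tested members, each at its brightest probe set, among 5941 genes. That mean was -0.57, -0.55 and -0.50 SD units with saline, -0.21, 0.08 and -0.46 with OVA, and 1.17, -0.17 and 1.20 on agonist replicates 1, 2 and 3. The r therefore mainly orders genes by how far agonist replicates 1 and 3 stood from the other arrays, and is given with no test. Slfn4, a schlafen gene of myeloid cells, came first (r = 0.94), with 76.2 to 96.2 with saline, 70.8 to 119.7 with OVA, and 457.5, 99.1 and 670.7 on agonist replicates 1, 2 and 3. Then followed Commd7 (0.93), Ptpra (0.91), Cdk2ap2 (0.91), Tspo (0.90), Med24 (0.89), Xpo6 (0.88), Wfdc21 (0.88), Psen2 (0.87) and Drc1 (0.85). Wfdc21, a small secreted protein, had 146.8 and 142.1 on agonist replicates 1 and 3 and 71.0 on replicate 2, with 32.1 to 62.6 in saline and 71.2 to 85.7 in OVA. Apart from Slfn4 these genes differed less between arrays: Tspo, a mitochondrial outer membrane protein, ran from 1234 to 1375 with saline and OVA and had 1479, 1325 and 1612 with agonist.

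**Figure D4:**
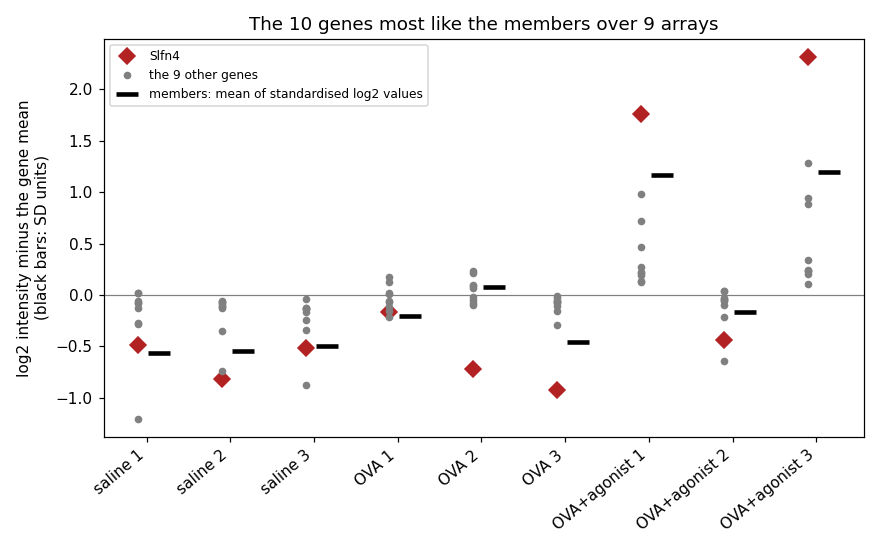
Log2 intensity minus the gene's mean over the 9 arrays for the 10 genes most like the members (red diamonds for Slfn4, grey points for the others), with the members' mean of standardised log2 values as black bars in SD units. The members' mean is 1.17 and 1.20 on agonist replicates 1 and 3 and -0.17 on replicate 2, and Slfn4 is highest on the same 2 arrays.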

How the data were processed

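The authors deposited linear intensity values for each probe set on each array. Values below 0 show that some signal had been subtracted. The sources used here do not name the software or the summarization. Each array was scaled to the same 2% trimmed mean (factors 0.741 to 1.29). Intensities below 3.19, the 20th percentile, were raised to that value and log2 was taken. Probe sets above 44.9, the 40th percentile, on at least 3 of 9 arrays were tested: 7916 of 12422 that are not controls. Genes were named from the platform annotation given for this array: 10833 probe sets carry 1 symbol, 396 several and 1193 none.

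Groups were compared in 1 fit of 9 arrays by lmFit and eBayes of limma 3.58.1 in R 4.3.3, and two-sided p-values were adjusted by Benjamini-Hochberg over all tested probe sets. These steps were first tested on simulated data. SE and interval are on the log2 scale, and the number of arrays limits the precision. The members, the gene lists and the tests were chosen with earlier results of these data known. Named were all members with every probe set of theirs, up to 4 genes of each other list per comparison (largest absolute log2 change at the brightest probe set, called genes ahead), and the 10 genes most like the members. Ly6g, Clec4d, Mpo, Cxcl5, Prg2, Epx and Hp, outside that rule, were named after their values were seen. Alternatives were equal medians, quantile normalization, the floor left out or set at the 40th percentile, the filter left out or set at the 60th percentile, a fit of only 6 arrays, a replicate block, and each array left out in turn.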

Additional observations from a re-analysis of the deposited data

How the results depend on the processing

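Of the member probe sets, 0 were called between OVA and saline in the main setting, in every fit without 1 array and with the replicate block (limma), and 1, Ltf, with the filter at the 60th percentile. The number of all probe sets called depended more on the setting. Between OVA and saline it was 752, 50 with the replicate block, and 80 to 856 with single arrays left out. Between agonist and OVA it was 225, 447 with the filter at the 60th percentile, 361 with the floor at the 40th percentile, 15 with only the 6 arrays compared, 14 with the replicate block, and 7 to 527 with single arrays left out. Between agonist and saline it was 6, 3 with that filter and also 3 with only the 6 arrays, 2 with the block, and 5 to 16 with single arrays left out. Between OVA and saline the count was 149, 138 and 126 without saline replicate 1, 2 and 3, and 80 and 110 without OVA replicate 1 and 2. Between agonist and OVA it was 24, 26 and 36 without saline replicate 1, 2 and 3, then 7, 10 and 129 without OVA replicate 1, 2 and 3, and 18, 31 and 527 without agonist replicate 1, 2 and 3. Between agonist and saline it was 16 without agonist replicate 2. The cause was not tested. The labels do not say that a replicate number marks a shared batch. Over the tested probe sets, deviations from the group means correlated at -0.14 to 0.17 between same-numbered arrays. Between differently numbered arrays of different groups they correlated at -0.15 to 0.15. Several spike-ins went with the number, and its part in the counts was not tested. With the block, the 12 list genes other than Alox15 called between OVA and saline in the text had limma adjusted p-values of 0.0583 (Chil3) to 0.0817 (Csf2ra). Lyz2 and Slpi between agonist and OVA had 0.114. Alox15, with all saline and agonist values below the floor, kept both calls with the block (limma adjusted p = 0.0022 and 0.0017).

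Among tested differences, the sign turned in 40 cases, 11 of them of members between OVA and saline, with 0 called in either setting. Among the members' untested agonist differences it turned in 7, all between agonist and OVA. Il1b (main 0.01) had -0.84 and -0.27 without agonist replicate 1 and 3, -0.42 without OVA replicate 3 and -0.011 with quantile normalization. Ltf (main -0.05) had 0.16 without agonist replicate 1 and 0.15 without OVA replicate 1, and Csf3r 95808_g_at (main 0.86) had -0.49 without OVA replicate 3. With single arrays left out, the log2 difference of OVA from saline ran from -0.086 to 0.24 for S100a8, from -0.20 to 0.12 for S100a9, from -0.25 to 0.36 for Csf3r 93198_at, and from -0.58 to 1.85 for 95808_g_at. It ran from -0.40 to 0.14 for Mmp9, -0.11 to 0.18 for Cd4, -0.023 to 0.40 for Cd79a, -0.22 to 0.053 for Ms4a2 and -0.063 to 0.45 for Slc4a1. That of agonist from OVA ran from -0.10 to 0.049 for Elane, -0.47 to 0.12 for Ccr1, -0.52 to 0.31 for Csf3, -0.19 to 0.28 for S100g, -0.10 to 0.12 for Cybb, -0.61 to 0.18 for Cd79b, -0.24 to 0.021 for Blk, -0.85 to 0.093 for Cd79a, -0.17 to 0.30 for Tpsb2, -0.15 to 0.19 for Ms4a2 and -0.17 to 0.22 for Slc4a1. With quantile normalization, Csf3r 93198_at had 0.0041 (0.011 with equal medians) between OVA and saline, and Cybb -0.0071 and Scgb1a1 -0.037 between agonist and OVA.

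Members near or below the detection limit (Il1b, Il1r2, Cxcr2, Ngp and Mmp8) have values that depend on the floor and on the subtraction made before deposit. With 3 arrays a group and agonist replicate 2 apart from replicates 1 and 3 for the S100 genes, the agonist mean rests on 2 arrays.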
